A study of Homo sapiens with 18 samples.

Results

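The genes of S phase and DNA replication were followed in ECV304 cells exposed to interleukin-1β (IL-1β), with and without the drug aminaphtone. The group is a list of 54 named genes, taken by symbol: a transcript cluster (the probes that the array groups for 1 transcription unit) was used where its annotation gave that symbol alone. For the 2 members with 2 such rows, CLSPN and UHRF1, the row with the higher mean was kept. All 54 of 54 members were on the array, out of 18377 genes with a row of their own, and all 54 lay above the filter on low signal, so no member was lost.

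Expression was measured in 18 samples on Affymetrix Human Gene 1.0 ST arrays, 3 arrays in each of 6 groups. Cells at confluence, grown in 10% serum and then held in 1% serum for 24 h in order to synchronise them, received recombinant IL-1β at 100 IU/ml for 1, 3 or 6 h. The treated groups received aminaphtone at 6 μg/ml together with IL-1β, and the control groups received medium with IL-1β. Every group therefore carried the serum reduction and IL-1β, no group lacked IL-1β, and a difference between times cannot separate the cytokine, the low serum and time in culture. The labels describe the replicates as independent without naming separate cultures, so the spread behind each p-value is the one among these 18 arrays, part of which may be technical. The labels call ECV304 an endothelial line with endothelial and epithelial traits, and as background the line has been traced by DNA typing to a bladder carcinoma line. In these arrays 6 of 12 endothelial markers lay under the filter (PECAM1, TEK, KDR, FLT1, ERG and EMCN) and 3 lay above the median of all transcript clusters (ESAM at 8.82, CLDN5 at 7.73 and ROBO4 at 7.11). All 12 epithelial and urothelial markers lay above the filter, and 6 above the median, from the keratins KRT8, KRT18 and KRT7 at mean log2 signals of 12.38, 11.75 and 11.36 down to CDH1 at 6.53 and GRHL2 at 5.73 among those under it. Of 3 leukocyte markers on the array, PTPRC was under the filter at 3.63, and CD3E at 5.67 and CD14 at 6.90 were above it and under the median. All 5 fibroblast markers also lay above the filter, and 1 of them, COL1A1 at 7.8, above the median.

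Replication begins when the origin recognition complex, with CDC6 and CDT1, loads the MCM helicase on DNA in G1. CDC45 and the GINS complex then turn the helicase on, primase and DNA polymerases copy the strands, and the sliding clamp PCNA, its RFC loader, the flap nuclease FEN1 and the ligase LIG1 complete them. Many of these genes are targets of the E2F transcription factors, which cyclin E activity releases from the retinoblastoma protein at entry into S phase, so their RNA is known to rise and fall together in cycling cells.

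The promoters of the members share sequence features that the choice by name did not use. RefSeq promoter windows (GRCh38.p14, 250 bases before to 50 after a start) were matched for 47 of the 54 members. Searched on both strands, an E2F element (TTTCCCGC, TTTGGCGC, TTTCGCGC or TTTGCCGC) was present for 27 of them (57.4%), against 3.99% of all 27305 genes with a window. The CCAAT box (CCAAT), the element bound by NF-Y, was present for 63.8% against 39.7%. The CHR element of genes expressed late in the cycle (TTTGAA or TTCGAA) was present for 8.51% against 19.5%. Genes with several windows counted once if any window matched. For reference beside the results, 8 promoters are shown over the 200 bases before the start, 5′ to 3′ on the strand of the gene, with each whole E2F match in capitals. MCM6, MCM3, MCM7, PCNA, E2F1 and CDT1 hold matches, and PRIM1 and RFC4, which had large falls between 1 and 6 h, hold none of these letters in the window shown.
MCM6 (chr2:135876444-135876643, minus strand): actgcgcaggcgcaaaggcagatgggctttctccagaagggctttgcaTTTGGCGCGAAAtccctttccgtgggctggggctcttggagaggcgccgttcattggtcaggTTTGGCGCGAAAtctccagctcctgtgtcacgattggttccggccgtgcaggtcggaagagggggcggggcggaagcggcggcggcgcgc
MCM3 (chr6:52284743-52284942, minus strand): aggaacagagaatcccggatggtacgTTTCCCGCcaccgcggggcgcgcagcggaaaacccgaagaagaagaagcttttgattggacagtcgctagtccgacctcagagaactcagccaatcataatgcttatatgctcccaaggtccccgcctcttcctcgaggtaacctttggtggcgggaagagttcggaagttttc
MCM7 (chr7:100101398-100101597, minus strand): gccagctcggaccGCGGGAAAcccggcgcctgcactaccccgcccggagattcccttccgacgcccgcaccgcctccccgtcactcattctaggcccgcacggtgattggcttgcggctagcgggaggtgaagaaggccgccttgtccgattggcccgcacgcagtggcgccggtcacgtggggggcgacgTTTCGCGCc
PCNA (chr20:5126623-5126822, minus strand): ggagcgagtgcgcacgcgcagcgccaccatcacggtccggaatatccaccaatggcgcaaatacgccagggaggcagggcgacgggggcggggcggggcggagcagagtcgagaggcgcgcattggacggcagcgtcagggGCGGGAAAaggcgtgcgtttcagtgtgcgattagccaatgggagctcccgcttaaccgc
E2F1 (chr20:33686386-33686585, minus strand): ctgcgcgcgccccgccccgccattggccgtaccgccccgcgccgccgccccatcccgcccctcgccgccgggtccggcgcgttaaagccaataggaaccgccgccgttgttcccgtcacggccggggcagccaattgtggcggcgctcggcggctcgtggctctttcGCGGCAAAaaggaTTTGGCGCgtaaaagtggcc
CDT1 (chr16:88803589-88803788, plus strand): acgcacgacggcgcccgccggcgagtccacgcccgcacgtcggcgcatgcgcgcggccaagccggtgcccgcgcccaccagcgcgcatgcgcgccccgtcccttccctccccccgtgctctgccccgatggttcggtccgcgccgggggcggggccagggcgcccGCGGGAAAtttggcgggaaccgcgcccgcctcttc
PRIM1 (chr12:56752324-56752523, minus strand): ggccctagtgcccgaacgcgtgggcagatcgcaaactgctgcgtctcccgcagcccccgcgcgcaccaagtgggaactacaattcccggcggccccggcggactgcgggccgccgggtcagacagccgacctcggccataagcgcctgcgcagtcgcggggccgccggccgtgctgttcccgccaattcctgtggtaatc
RFC4 (chr3:186806483-186806682, minus strand): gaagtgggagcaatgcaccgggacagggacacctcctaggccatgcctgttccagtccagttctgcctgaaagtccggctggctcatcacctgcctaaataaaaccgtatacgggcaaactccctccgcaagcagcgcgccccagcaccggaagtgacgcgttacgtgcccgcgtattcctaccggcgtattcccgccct
MCM6 has 4 matches in 2 places, because its TTTGGCGCGAAA runs read as a match on either strand. MCM7 and E2F1 have 2 matches each, and MCM3, PCNA and CDT1 have 1. A match is a description of the letters, and the factors that bind there were not measured.

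The deposited values are log2 signals, whose array medians ran from 6.926 to 7.055. Signals of different genes come from different probes and are not compared with each other. The p-values below are from limma, fitted over 17853 transcript clusters with 1 mean per group and adjusted by Benjamini and Hochberg, and "passed" means an adjusted p under 0.05. The 1 h control arrays stood apart. They correlated with each other at 0.964 to 0.986, against at least 0.986 in every other group, and the members' median SD was 0.392 in this group against 0.114 to 0.223 in the others. The first component of the deviations from the group means held 57.6% of the residual variance, with 1 h control replicate 1 at -47.4 and replicate 2 at 42.9. Each comparison of the members that uses these arrays is therefore also given without the array that moved it. Values for the other gene lists, the promoter groups and the neighbouring genes, described below, are given from all arrays only.

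**Figure D1:**
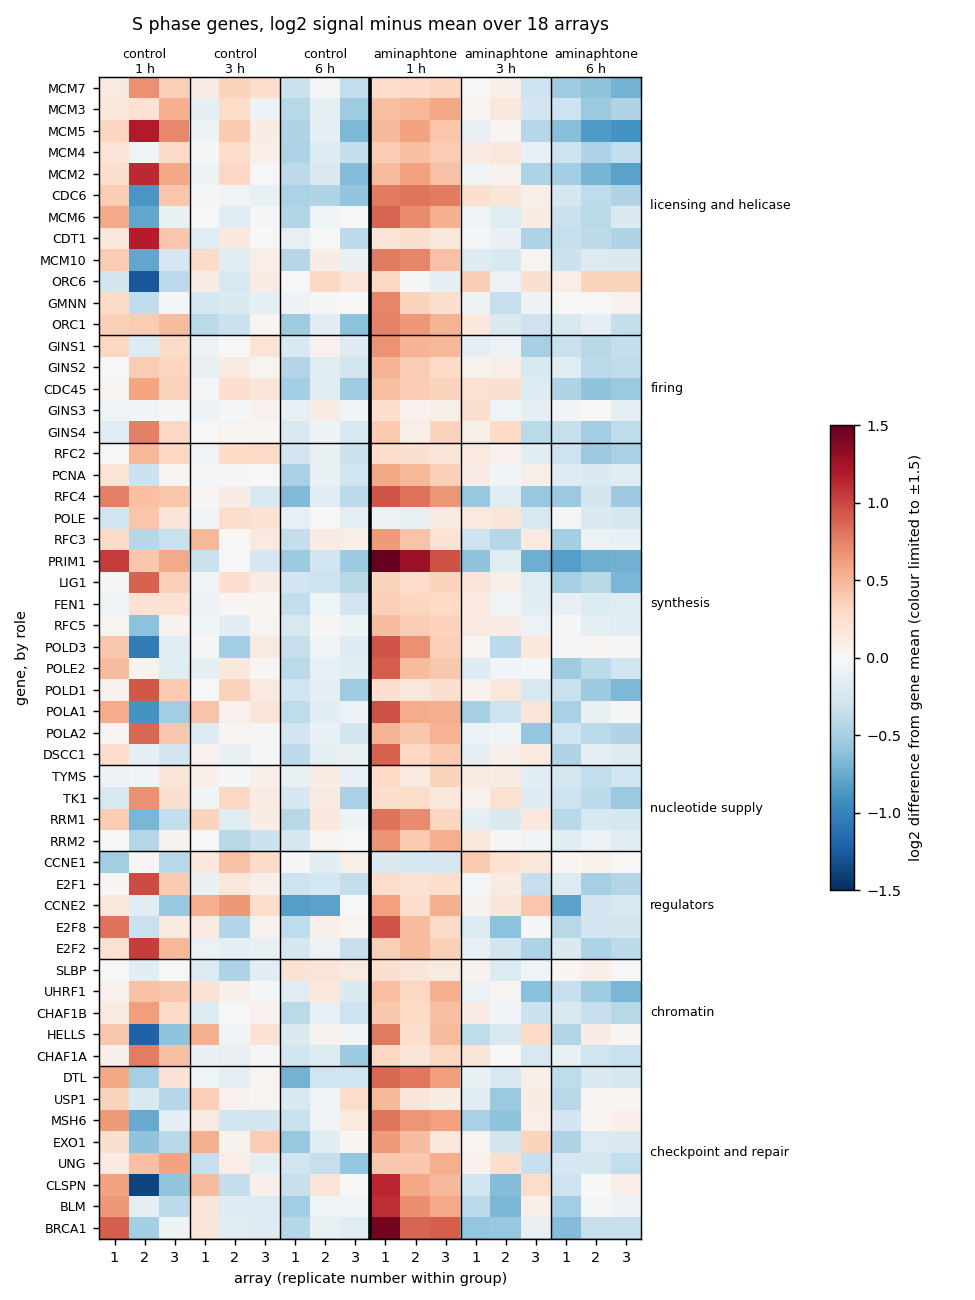
Log2 signal of the 54 members (vertical, grouped by role) on the 18 arrays (horizontal, by group and replicate number), as the difference from each gene's mean over all arrays, with colour limited to ±1.5. The 1 h aminaphtone arrays are above the gene mean for most members and the 6 h arrays of both treatments are below it, and 1 h control replicates 1 and 2 differ from each other in many rows.

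Many S phase genes were lower at 6 h than at 1 h. In the controls 21 of the 54 members were lower at 6 h and 1, ORC6, was higher (background 13.7% lower and 10% higher among all transcript clusters tested). The members' median log2 difference was -0.35, against -0.008 over all tested. With aminaphtone 43 members were lower at 6 h than at 1 h and none was higher (background 9.86% lower and 5.49% higher), with a median of -0.75 against 0.033. All 3 of the 6 h arrays lay below all 3 of the 1 h arrays for 21 members in the controls (background 16.5%) and for 51 with aminaphtone (background 23.5%). All 21 members that fell in the controls also fell with aminaphtone, which is 100% of the control list and 48.8% of the aminaphtone list. With 43 of the 54 members on the aminaphtone list, most of any list of members would be on it. Both lists came from the same fit and share its estimate of spread, but no arrays. In bulk RNA, fewer cells in S phase and less RNA of these genes per cell cannot be told apart. Without each of the 18 arrays in turn, 18 of the 22 calls in the controls and 30 of the 43 with aminaphtone were kept. The calls lost in at least 1 of these fits were CDT1, FEN1, POLA2 and RFC2 in the controls, and with aminaphtone CDT1, GINS4, POLA1, RFC3, RFC5, RRM1, TK1, E2F1, E2F8, CCNE2, CHAF1A, BLM and EXO1. With only the 6 arrays compared, a fit with fewer degrees of freedom, 6 control members passed (6.1% of all transcript clusters did), all lower: MCM5, MCM2, PRIM1, RFC4, ORC1 and UNG. ORC6 then had a limma adjusted p of 0.0999, MCM7 of 0.0819, CDC45 of 0.0576 and E2F2 of 0.0615. A member that passed in one treatment and not in the other is not thereby shown to differ between them, and no member passed the test of that difference given below. The control median became -0.22 without 1 h control replicate 1, and -0.25 without 6 h control replicate 1.

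Part of the fall was already present at 3 h. In the controls PRIM1, E2F2, ORC1, RFC4, CHAF1A and UNG were lower at 3 h than at 1 h and CCNE1 was higher (background 7.07% lower and 4.26% higher), with a median of -0.11 against -0.011 over all tested. The replicate numbers at 1 and 3 h behaved as pairs in the controls, as judged from these same arrays. With the number as a block common to all groups, 9 members were lower and 2 higher (12.6% of all transcript clusters passed). That block sets 1 effect per number for all groups, also where equal numbers did not pair. With aminaphtone, the deviations of equal numbers at 1 and 3 h correlated at -0.444, 0.247 and -0.329. Of the 7 members that passed unblocked, 3 passed without each of the 18 arrays in turn: PRIM1, E2F2 and CCNE1. The number that passed was 25 without 1 h control replicate 1, of which 10 were higher and 15 lower and where the median became -0.01, 3 without 3 h control replicate 1 and 4 without 3 h control replicate 3. In those fits 31.9%, 5.48% and 6.75% of all transcript clusters passed. With only the 6 arrays compared none passed by limma (1.24% of all transcript clusters did), and 13 had an unadjusted p under 0.05. With aminaphtone 23 members were lower at 3 h than at 1 h and CCNE1 was higher (background 4.92% lower and 4.51% higher), with a median of -0.50 against 0.026. This count rested in part on single arrays. It was 6, 14 and 14 without 1 h aminaphtone replicate 1, 2 or 3, and 13 without 3 h aminaphtone replicate 1 (4.46%, 6.12%, 6.87% and 4.64% of all passed). The 6 that passed without each array in turn were ORC1, GINS1, PRIM1, RFC4, E2F2 and BRCA1. Of the 6 members lower in the controls at 3 h, 4 were also lower with aminaphtone, where 23 of all 54 members were. That is 66.7% of the control list and 17.4% of the other.

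**Figure D2:**
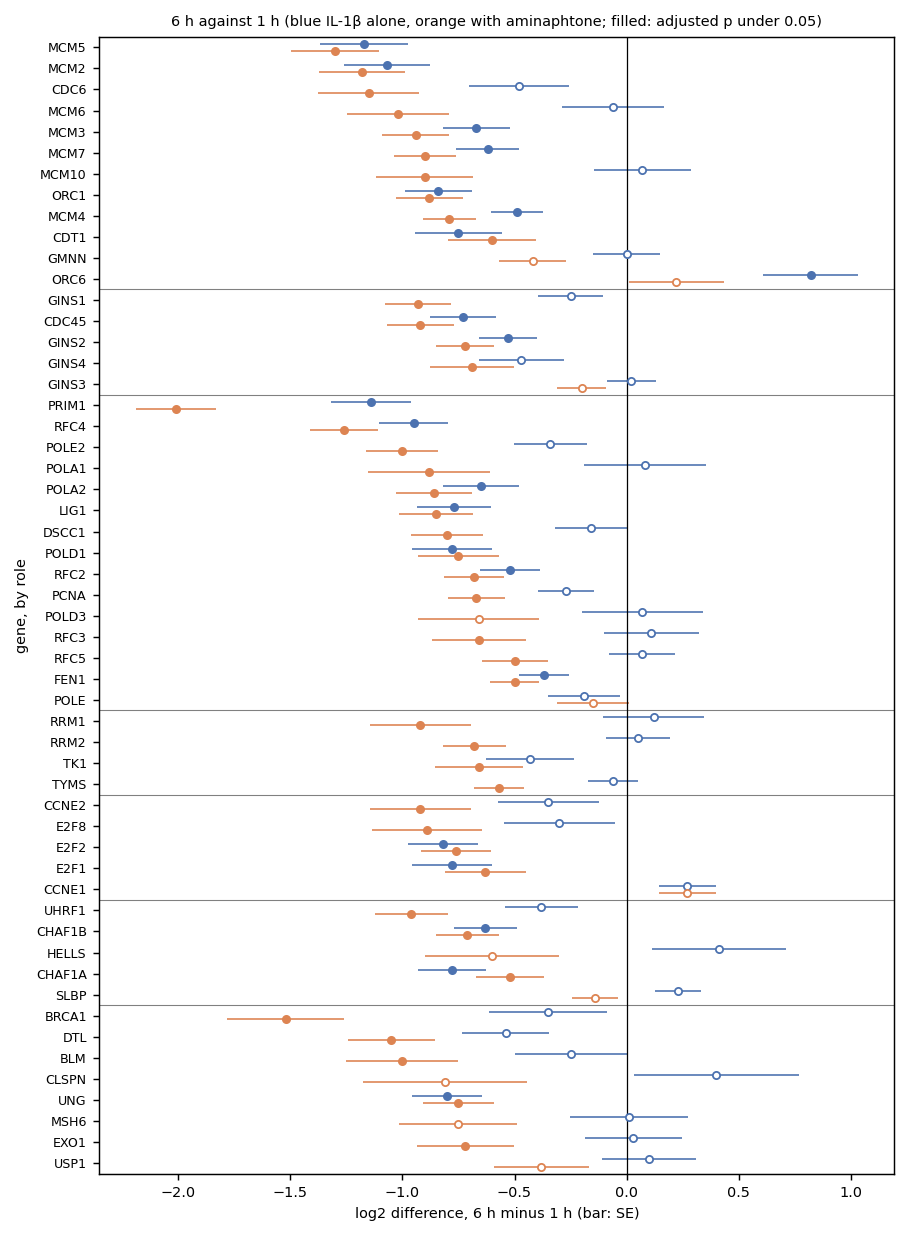
Log2 difference between 6 h and 1 h (horizontal; points are the estimates from 3 arrays per group, bars their standard error) for each member (vertical, grouped by role), in cells with IL-1β alone (blue) and with aminaphtone (orange). Filled points passed the adjusted threshold: 22 in the controls, of which ORC6 is to the right of 0, and 43 with aminaphtone.

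Among the 12 genes of origin licensing and the helicase, 7 fell in the controls between 1 and 6 h and 10 fell with aminaphtone (background 13.7% and 9.86% lower). MCM5, a helicase subunit, had log2 signals of 10.08, 10.95 and 10.48 in the 1 h controls and 9.31, 9.62 and 9.08 in the 6 h controls. With aminaphtone the signals were 10.24, 10.36 and 10.18 at 1 h and 9.12, 8.91 and 8.86 at 6 h. The groups did not overlap in either treatment. MCM5 was 2.25-fold lower in the controls (log2 difference -1.17, SE 0.195, n = 3 per group, limma adjusted p = 0.000524) and 2.45-fold lower with aminaphtone (log2 -1.30, SE 0.195, limma adjusted p = 0.000272). MCM2, another subunit, fell by 1.07 and by 1.18 on the log2 scale (limma adjusted p = 0.000852 and 0.000459). MCM7, also a subunit, fell less. Its log2 signals were 11.28, 11.83 and 11.51 in the 1 h controls against 10.83, 11.13 and 10.78 at 6 h, a log2 difference of -0.62, and the difference with aminaphtone was -0.90. MCM3 and MCM4 fell by 0.67 and 0.49 in the controls and by 0.94 and 0.79 with aminaphtone. The subunit MCM6 passed with aminaphtone and not in the controls. In the 1 h controls it stood at 9.43, 8.08 and 8.75, a range that covered the 6 h controls at 8.42, 8.80 and 8.87, and the log2 difference was -0.06 (SE 0.228). With aminaphtone it went from 9.73, 9.57 and 9.40 to 8.53, 8.46 and 8.65, without overlap, a log2 difference of -1.02 (limma adjusted p = 0.00519).

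The loading factors did not move as a block. ORC1, the subunit of the origin recognition complex whose RNA follows the cell cycle, had the signals 7.98, 8.01 and 8.10 in the 1 h controls, 7.22, 7.30 and 7.65 at 3 h and 7.09, 7.47 and 7.01 at 6 h. It was lower at both later times without overlap, by 0.64 and 0.84 on the log2 scale (limma adjusted p = 0.0102 and 0.000801), and by 0.76 and 0.88 with aminaphtone (limma adjusted p = 0.00341 and 0.000672). At 3 h in the controls ORC1 passed in 17 of 18 fits that left out 1 array. Its partner ORC6 went the other way in the controls, from 7.98, 6.98 and 7.86 at 1 h to 8.26, 8.56 and 8.45 at 6 h. ORC6 was 1.76-fold higher at 6 h (log2 difference 0.82, SE 0.212, limma adjusted p = 0.01), and 1 h control replicate 2 was far below the other 1 h arrays. With aminaphtone the difference was 0.22 (SE 0.212, limma adjusted p = 0.547). CDC6, the loader of the helicase, fell with aminaphtone by 1.15 (SE 0.224, limma adjusted p = 0.00195), from 9.96, 9.98 and 9.96 to 8.92, 8.80 and 8.73. In the controls CDC6 had a log2 difference of -0.48 (limma adjusted p = 0.135), with 1 h control replicate 2 at 8.30 below all 3 of the 6 h arrays. CDT1, which works with CDC6, fell by 0.75 in the controls and by 0.60 with aminaphtone. GMNN, the inhibitor of CDT1, had log2 differences of 0.00 and -0.42 and passed in neither arm at 6 h. MCM10, which helps to start the loaded helicase, had a log2 difference of 0.07 in the controls and fell by 0.90 with aminaphtone.

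**Figure D3:**
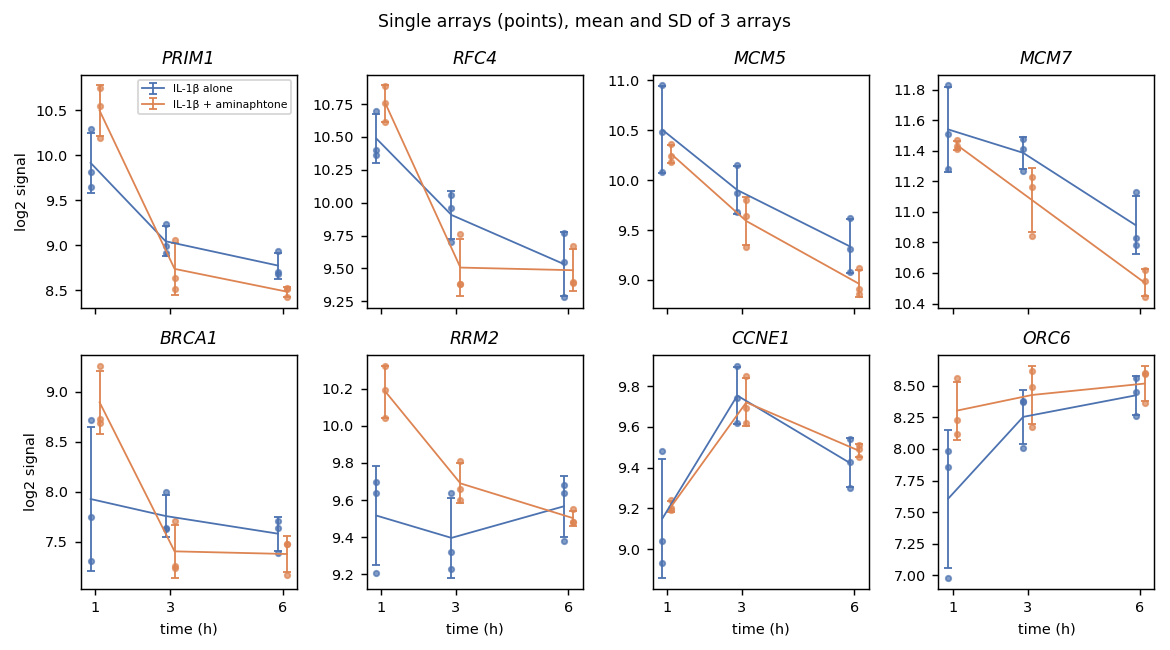
Log2 signal (vertical, scale set per panel) over time in hours (horizontal) for 8 members, with IL-1β alone (blue) and with aminaphtone (orange). Points are single arrays, lines join the means and bars are the SD of 3 arrays. PRIM1 and RFC4 fall mainly between 1 and 3 h, MCM5 and MCM7 continue down to 6 h, CCNE1 has its highest mean at 3 h, and the 1 h controls are widely spread for BRCA1 and ORC6.

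Of the 5 genes of origin firing, CDC45 and GINS2 fell in the controls between 1 and 6 h, and CDC45, GINS1, GINS2 and GINS4 fell with aminaphtone (background 13.7% and 9.86% lower). CDC45, the helicase cofactor, had the signals 9.40, 9.94 and 9.70 in the 1 h controls and 8.84, 9.19 and 8.82 at 6 h. It was lower by 0.73 in the controls (SE 0.149, limma adjusted p = 0.00228) and by 0.92 with aminaphtone (SE 0.149, limma adjusted p = 0.000454). GINS1, a GINS subunit, had a log2 difference of -0.25 in the controls and fell by 0.93 with aminaphtone, from 10.46, 10.30 and 10.29 at 1 h to 9.46, 9.37 and 9.43 at 6 h. GINS3, a further subunit, had differences of 0.02 and -0.20 and passed in neither. Its 95% intervals of the aminaphtone and control differences were -0.43 to 0.03 and -0.21 to 0.25.

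PRIM1, the catalytic subunit of primase, which lays the RNA primers, had the largest fall with aminaphtone among the 54 members. The log2 signals with aminaphtone were 10.75, 10.54 and 10.19 at 1 h, 8.64, 9.06 and 8.51 at 3 h and 8.42, 8.51 and 8.52 at 6 h. In the controls they were 10.29, 9.64 and 9.81, then 8.91, 9.23 and 8.99, then 8.68, 8.94 and 8.70. In both treatments the 1 h arrays were all above the later ones, and most of the fall lay before 3 h. PRIM1 was 4.04-fold lower at 6 h than at 1 h with aminaphtone (log2 difference -2.01, SE 0.179, n = 3 per group, limma adjusted p = 1.55e-06). In the controls it was 2.2-fold lower (log2 -1.14, SE 0.179, limma adjusted p = 0.000328). RFC4, a subunit of the clamp loader, behaved alike in shape: 10.70, 10.40 and 10.36 in the 1 h controls, 9.96, 10.06 and 9.70 at 3 h and 9.28, 9.77 and 9.55 at 6 h. With aminaphtone it stood at 10.89, 10.76 and 10.61, then 9.38, 9.76 and 9.38, then 9.39, 9.67 and 9.40. RFC4 fell by 0.95 in the controls and by 1.26 with aminaphtone over 6 h (SE 0.153, limma adjusted p = 0.000398 and 3.3e-05).

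The other genes of DNA synthesis had smaller differences over 6 h. Of the 15 members in this role 7 fell in the controls over 6 h and 13 with aminaphtone (background 13.7% and 9.86% lower), where POLD3 and POLE did not pass. RFC2 fell by 0.52 and 0.68, whereas RFC3 and RFC5 had control differences of 0.11 and 0.07 and fell by 0.66 and 0.50 with aminaphtone. PCNA, the sliding clamp, had the signals 10.34, 9.81 and 10.18 in the 1 h controls and 9.65, 10.02 and 9.84 at 6 h, which overlapped (log2 difference -0.27, SE 0.126, limma adjusted p = 0.136). With aminaphtone PCNA went from 10.72, 10.63 and 10.49 to 9.94, 9.92 and 9.97, without overlap (log2 -0.67, SE 0.126, limma adjusted p = 0.00162). POLA1 and POLA2, the catalytic and accessory subunits of polymerase alpha, which extends the primers, had control differences of 0.08 and -0.65, of which POLA2's passed, and fell by 0.88 and 0.86 with aminaphtone. For polymerase delta POLD1, the catalytic subunit, fell by 0.78 and 0.75, and for polymerase epsilon the accessory subunit POLE2 had a control difference of -0.34 and fell by 1.00 with aminaphtone. POLE, the catalytic subunit of polymerase epsilon, had differences of -0.19 and -0.15 (SE 0.161). LIG1, which seals nicks, fell by 0.77 and 0.85, and FEN1, which trims flaps, by 0.37 and 0.50. DSCC1, a subunit of an alternative clamp loader, had a control difference of -0.16 and fell by 0.80 with aminaphtone.

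None of the 4 genes of nucleotide supply passed in the controls over 6 h, and all 4 fell with aminaphtone (background 13.7% and 9.86% lower). RRM2, the regulated subunit of ribonucleotide reductase, had the signals 9.64, 9.21 and 9.70 in the 1 h controls and 9.38, 9.68 and 9.64 in the 6 h controls, with a log2 difference of 0.05 (SE 0.141). With aminaphtone it went from 10.32, 10.04 and 10.19 to 9.48, 9.55 and 9.48, a fall of 0.68 (SE 0.141, limma adjusted p = 0.00329). RRM1, the large subunit, had a control difference of 0.12 and fell by 0.92 with aminaphtone. TYMS, thymidylate synthase, had 11.11, 11.16 and 11.39 against 11.09, 11.31 and 11.08 in the controls and 11.50, 11.35 and 11.54 against 10.94, 10.83 and 10.91 with aminaphtone. The control arrays overlapped and the aminaphtone arrays did not, with log2 differences of -0.06 and -0.57 (SE 0.111, limma adjusted p = 0.796 and 0.00203). TK1, thymidine kinase, had a control difference of -0.43 (limma adjusted p = 0.129) and fell by 0.66 with aminaphtone.

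Of the 5 regulators of S phase entry, E2F1 and E2F2 fell in the controls over 6 h, and E2F1, E2F2, E2F8 and CCNE2 fell with aminaphtone (background 13.7% and 9.86% lower). E2F2, an activator E2F, had 7.54, 8.35 and 7.80 in the 1 h controls, 7.22, 7.17 and 7.20 at 3 h and 7.05, 7.22 and 6.96 at 6 h. It fell by 0.70 at 3 h and 0.82 at 6 h (SE 0.157, limma adjusted p = 0.00809 and 0.00148), and by 0.68 and 0.76 with aminaphtone. E2F1, also an activator, fell by 0.78 in the controls and by 0.63 with aminaphtone over 6 h. E2F8, a repressor E2F, had a control difference of -0.30 and fell by 0.89 with aminaphtone. CCNE1, cyclin E1, was the member higher at 3 h in both arms. Its signals were 8.93, 9.48 and 9.04 in the 1 h controls, 9.62, 9.90 and 9.74 at 3 h and 9.43, 9.30 and 9.54 at 6 h. With aminaphtone they were 9.24, 9.19 and 9.20, then 9.85, 9.69 and 9.62, then 9.49, 9.51 and 9.45. The 3 h arrays were above the 1 h arrays without overlap in both arms, by 1.51-fold in the controls (log2 0.60, SE 0.127, limma adjusted p = 0.00589) and 1.42-fold with aminaphtone (log2 0.51, SE 0.127, limma adjusted p = 0.017). The rise with aminaphtone passed in 14 of 18 fits that left out 1 array. CCNE2, cyclin E2, had 9.49, 9.59 and 9.20 in the 3 h controls and 8.11, 8.14 and 8.95 in the 6 h controls, with the 6 h replicate 3 apart from the other two. That is a log2 difference of -1.03 (SE 0.225, limma adjusted p = 0.0561), just outside the threshold. From 1 to 6 h CCNE2 fell by 0.92 with aminaphtone and had a control difference of -0.35.

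Chromatin assembly genes that act behind the fork included both subunits measured of chromatin assembly factor 1. CHAF1A fell by 0.78 in the controls and 0.52 with aminaphtone between 1 and 6 h, and CHAF1B by 0.63 and 0.71. UHRF1, which helps to copy DNA methylation, had a control difference of -0.38 (limma adjusted p = 0.105) and fell by 0.96 with aminaphtone (SE 0.163, limma adjusted p = 0.000722). HELLS, a chromatin remodeller, had 9.10, 7.48 and 8.09 in the 1 h controls, the widest of this role, and passed in neither arm. SLBP, which binds histone messenger RNA, had 9.70, 9.44 and 9.75 in the 3 h controls and 10.13, 10.10 and 10.04 at 6 h. The 6 h arrays were above without overlap (log2 difference 0.46, SE 0.103, limma adjusted p = 0.059), and the difference did not pass.

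Of the 8 checkpoint and repair genes, UNG alone fell in the controls over 6 h, and DTL, BRCA1, BLM, EXO1 and UNG fell with aminaphtone (background 13.7% and 9.86% lower). The control count of this role is near the background. UNG, which removes uracil from DNA, fell by 0.80 and 0.75. BRCA1, a repair gene with high RNA in S phase, had 8.72, 7.31 and 7.75 in the 1 h controls and 7.39, 7.71 and 7.64 at 6 h, which overlapped (log2 difference -0.35, SE 0.262, limma adjusted p = 0.393). With aminaphtone it had 9.26, 8.69 and 8.73 at 1 h, 7.24, 7.26 and 7.71 at 3 h and 7.17, 7.48 and 7.48 at 6 h. The later aminaphtone arrays were all below the 1 h arrays, by 2.81-fold at 3 h (log2 -1.49, SE 0.262, limma adjusted p = 0.00143) and 2.86-fold at 6 h (log2 -1.52, SE 0.262, limma adjusted p = 0.000791). DTL, which directs CDT1 for degradation, had a control difference of -0.54 (limma adjusted p = 0.0553) and fell by 1.05 with aminaphtone. BLM, a helicase of recombination, was 2.19-fold lower at 3 h with aminaphtone (log2 -1.13, limma adjusted p = 0.00791), and its adjusted p was 0.0581 without 1 h aminaphtone replicate 1. MSH6, of mismatch repair, was 2.03-fold lower at 3 h (log2 -1.02, limma adjusted p = 0.0198) and at 6 h had a difference of -0.75 (limma adjusted p = 0.0644). CLSPN, an adaptor of the checkpoint, had the widest 1 h controls of the 54 members at 8.83, 6.84 and 7.63, and passed in neither arm. USP1, a deubiquitinase of PCNA, had 6 h differences of 0.10 and -0.38.

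Between 3 and 6 h no member passed in either arm, and limma gave 16 members at an unadjusted p under 0.05 in the controls (15 lower, 1 higher) and 15 with aminaphtone, all lower. In the controls 0.459% of all transcript clusters passed and 4.41% were lower and 5.02% higher at that unadjusted level, and with aminaphtone 0.235% passed and 7.16% were lower. The members' medians were -0.24 and -0.23, against -0.001 and 0.007 over all tested, with 49 and 44 of 54 below 0. The members with the smallest p with aminaphtone were CDC45 (log2 -0.62, limma adjusted p = 0.107), MCM7 (-0.54, 0.14), MCM4 (-0.44, 0.156) and LIG1 (-0.57, 0.2). In the controls CDC45 and MCM4 had -0.54 and -0.45 (limma adjusted p = 0.149 and 0.115). The count in the controls was 2, 4 and 1 without 1 h control replicate 1, 2 or 3 and 1 without 6 h control replicate 3 (1.28%, 1.71%, 0.358% and 0.174% of all passed). With aminaphtone it was 1 and 5 without 1 h control replicate 1 or 2, and 1 without 3 h aminaphtone replicate 3 (0.851%, 1.39% and 0.241% of all passed). The 1 h control arrays enter these comparisons through the shared spread, and without all 3 of them 7 control members and 6 aminaphtone members passed (2.17% and 2.01% of all did), an alternative chosen after seeing the data.

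Aminaphtone was then compared with control at each time, which is the comparison the study was designed for. At 1 h most S phase genes had higher values with aminaphtone, and none passed. The mean log2 signal of the 54 members was 9.62, 9.46 and 9.42 on the aminaphtone arrays and 9.27, 9.06 and 9.13 on the control arrays, and the groups did not overlap. The median log2 difference was 0.26, against -0.096 over all tested, with 42 members above 0. At an unadjusted p under 0.05 limma gave 27 members higher and none lower, where 16.4% of all transcript clusters were higher and 12.5% lower, and 0.084% passed the adjusted threshold in either direction. For 15 members all aminaphtone arrays lay above all control arrays (background 5.31%) and for none below (background 7.67%). The 4 members with the smallest p were RRM2, MCM10, PCNA and RFC5. RRM2 was 1.59-fold higher, from 9.64, 9.21 and 9.70 to 10.32, 10.04 and 10.19 (log2 difference 0.67, SE 0.141, limma adjusted p = 0.0835). MCM10 had a log2 difference of 0.86 (SE 0.216, limma adjusted p = 0.129), PCNA 0.50 (SE 0.126, limma adjusted p = 0.133) and RFC5 0.56 (SE 0.147, limma adjusted p = 0.143).

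These 1 h differences moved with the spread among the control arrays. CLSPN had the largest difference, 1.19 (SE 0.366), and the widest 1 h controls. Across the 54 members the loading on the first residual component and the 1 h difference correlated at r = -0.95, and over all transcript clusters tested at -0.90, which is a description across genes that share the same arrays. Over all 54 members, 1 h control replicate 2 was the lowest control array for 23 and replicate 1 the highest for 24. Among the 21 members with a difference above 0.5, which are chosen by that difference, the counts were 18 and 18. The helicase subunits show both sides: MCM6 had 9.43, 8.08 and 8.75 in the controls and a difference of 0.82, while MCM5 had 10.08, 10.95 and 10.48 and a difference of -0.24. A gradient score was made from a second such component, computed over the tested transcript clusters without the members and the other replication and G2 and mitosis genes listed below. It places each array by its values before the group means are removed. The score was 25.9 ± 45 (SD, n = 3) in the 1 h controls and -15 ± 11.6 with aminaphtone. With this score as a covariate, an alternative chosen after seeing the data, the range of the members narrowed from -0.38 to 1.19 to -0.17 to 0.51, 52 members were above 0, the median was 0.30 and none passed. At 1 h the replicate numbers behaved as pairs, as judged from these same arrays. Their order on the first residual component was alike by number: -47.4, 42.9 and 4.49 in the controls, -13.2, 9.01 and 4.23 with aminaphtone. Pairing and the gradient therefore cannot be told apart. With the number as a block within each time, also at 3 and 6 h where numbers did not pair, 23 members were higher and none lower (12.4% of all transcript clusters passed). RRM2 then had a limma adjusted p of 0.0165. These calls are not separate support for the 1 h difference. Without 1 h control replicate 1, 26 members were higher and 5 lower (48.2% of all passed), and all 23 of the blocked calls were among the 26. Without replicate 2 none passed. The part of the gradient in the 1 h result was not tested beyond these fits.

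**Figure D4:**
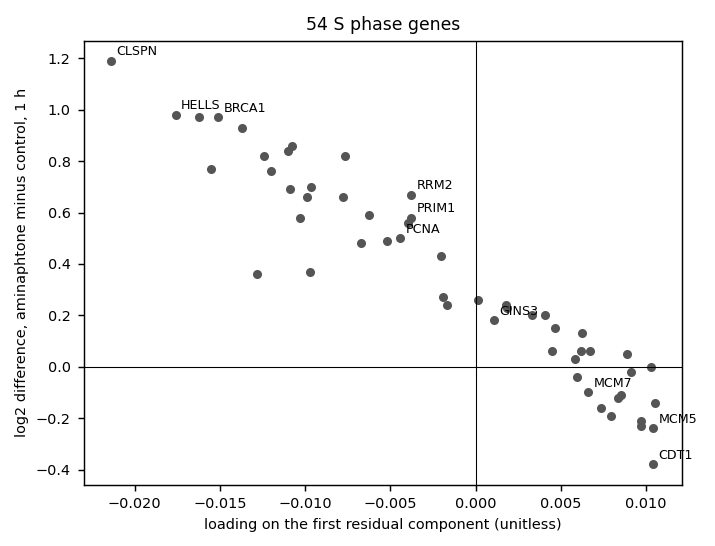
Log2 difference between aminaphtone and control at 1 h (vertical) against the loading on the first component of the deviations from the group means (horizontal, unitless) for the 54 members, 1 point per gene. The points fall along a line (r = -0.95), from CLSPN at 1.19 to CDT1 at -0.38.

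At 3 and 6 h the differences between treatments were smaller, running from -0.43 to 0.29 and from -0.45 to 0.20, and 40 of the 54 members were below 0 at each time. None passed at either time, and limma gave 2 members, RFC4 and MCM7, at an unadjusted p under 0.05 at 3 h and 3, UHRF1, MCM7 and TYMS, at 6 h, all lower with aminaphtone (0.028% and 0.101% of all transcript clusters passed, and 1.62% and 2.26% were lower at that unadjusted level). The medians were -0.11 and -0.07, against -0.009 and -0.016 over all tested. MCM7 had 11.27, 11.48 and 11.41 in the 3 h controls and 11.16, 11.23 and 10.84 with aminaphtone, and 10.83, 11.13 and 10.78 against 10.62, 10.55 and 10.44 at 6 h. The aminaphtone arrays lay below the control arrays at both times, by 0.31 and 0.38 on average (SE 0.139, limma adjusted p = 0.77 and 0.978), and the 95% intervals of the differences were -0.60 to -0.01 and -0.67 to -0.08. UHRF1 had 8.97, 9.31 and 8.94 in the 6 h controls against 8.80, 8.62 and 8.46, a log2 difference of -0.45 (SE 0.163, limma adjusted p = 0.961). TYMS had a 6 h difference of -0.27 (SE 0.111, limma adjusted p = 1), MCM5 -0.37 (SE 0.195, limma adjusted p = 1) and RFC4 a 3 h difference of -0.40 (SE 0.153, limma adjusted p = 0.618). RRM2 had 9.81, 9.66 and 9.60 with aminaphtone at 3 h against 9.64, 9.23 and 9.32, which overlapped, a difference of 0.29 (limma adjusted p = 0.793).

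Averaged over the 3 times no member passed (0.751% of all transcript clusters did), and limma gave 8 higher and 4 lower at an unadjusted p under 0.05, where 9.7% and 8.76% of all were. The smallest adjusted p was 0.0993. CDC6 had an average difference of 0.40 and MCM7 of -0.26 (limma adjusted p = 0.165 and 0.143). The count was 16 without 1 h control replicate 1 and 1 without replicate 2 (19.1% and 1.04% of all transcript clusters passed). In the test of whether the difference changed with time, the interaction, none passed (0.0336% of all did) and 21 of 54 had an unadjusted p under 0.05, against 8.65% of all. The smallest unadjusted p was that of PRIM1, whose difference was 0.58 at 1 h, -0.30 at 3 h and -0.29 at 6 h (limma adjusted p = 0.537). BRCA1 had 0.97, -0.35 and -0.20, and MCM10 0.86, -0.21 and -0.11, at the same adjusted p. The count that passed was 21 without 1 h control replicate 1, where 16.2% of all transcript clusters passed. The interaction is also the test of whether the fall over time differed between the treatments, and it uses the same 1 h arrays as the 1 h comparison.

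Medians were also taken by promoter match. Members with and without an E2F match had median log2 differences between 6 h and 1 h of -0.76 and -0.70 with aminaphtone and of -0.34 and -0.36 in the controls (27 and 20 members). By CCAAT match these medians were -0.85 and -0.71 with aminaphtone and -0.26 and -0.52 in the controls (30 and 17 members). At 1 h, members with a CCAAT match had a median difference between aminaphtone and control of 0.53 and those without of 0.06. By E2F match the 1 h medians were 0.24 and 0.25. The 1 h differences moved with the spread among the control arrays, as described above. These medians are descriptions, and no test was made of them.

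Other replication genes, a list of 61 not among the 54, were set beside the members. All 59 on the array lay above the filter. Between 1 and 6 h, 7 were higher and 7 lower in the controls (background 10% higher and 13.7% lower) and 20 were lower and none higher with aminaphtone (background 9.86% lower and 5.49% higher), with medians of 0.00 and -0.44, where the 54 members had -0.35 and -0.75. The control counts are near the background, and the difference between the lists was not tested. E2F3, an activator E2F, was higher at 6 h in the controls by 0.63 (limma adjusted p = 0.0477). PRIM2, the partner of PRIM1 in primase, fell by 1.19 with aminaphtone (limma adjusted p = 7.06e-05) and had a control difference of -0.27. ORC4, of the origin recognition complex, fell by 1.20 in the controls and 1.31 with aminaphtone. At 1 h none of the 59 passed, 31 were higher at an unadjusted p under 0.05 (background 16.4%), and the median difference was 0.38.

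Genes of G2 and mitosis, 25 measured of 26, were taken for comparison. Between 1 and 6 h in the controls 8 were higher and 1 lower (background 10% higher and 13.7% lower), with a median of 0.45, and between 3 and 6 h their medians were 0.34 in the controls and 0.40 with aminaphtone, where the S phase members had -0.24 and -0.23. With aminaphtone 8 of the 25 were lower at 3 h than at 1 h and none higher (background 4.92% lower and 4.51% higher, median -0.73), and 3, CCNB2, CDC25C and PTTG1, were lower at 6 h, near the background of 9.86% (median -0.39). At 1 h 16 of the 25 were higher with aminaphtone at an unadjusted p under 0.05 (background 16.4%) and none passed (median 0.53). The mean log2 signal of the 25 genes was 9.82, 9.41 and 9.52 on the 1 h control arrays. On the 6 h control arrays it was 9.79, 10.19 and 9.91, so these groups overlapped. The values of this list that use the 1 h controls are not given without single arrays. The difference between the lists was not tested.

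**Figure D5:**
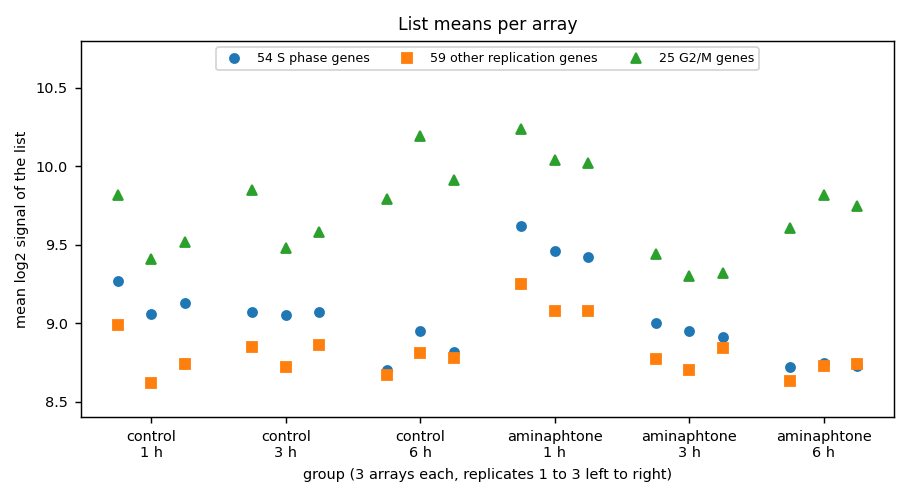
Mean log2 signal (vertical, axis from 8.4) of the 54 S phase genes, 59 other replication genes and 25 genes of G2 and mitosis on each of the 18 arrays (horizontal, by group; replicates 1 to 3 from left to right). The S phase mean is highest on the 1 h aminaphtone arrays (9.42 to 9.62) and lowest at 6 h (8.70 to 8.95 in controls, 8.72 to 8.75 with aminaphtone), while the G2 and mitosis mean in the controls is highest at 6 h.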

How the data were processed

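The authors deposited log2 signals per transcript cluster, made by RMA in Affymetrix Expression Console, per the submitters' processing notes, which give no version. RMA corrects background and normalizes by quantiles, which sets array distributions alike, and which arrays were processed together is not given in the sources used here. The table holds 28869 transcript clusters, of which 19310 carry a single symbol in the platform annotation. Annotated transcript clusters with a mean above the 25th percentile of all rows (log2 5.523) were tested, 17853 in all. In R 4.3.3, limma 3.58.1 estimated a mean for each of the 6 groups from the 18 arrays, leaving 12 residual and 4.857 prior degrees of freedom, with two-sided tests, Benjamini-Hochberg adjustment over all tested and a threshold of 0.05. With arrays, precision is limited by their number. The calculation was tested on simulated data, drawn independently with the same spread in every group. The simulation held no shared component, so it does not cover the uneven spread of the 1 h controls.

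The members, lists, roles, motifs and rule for named genes (members past the threshold, else the 4 smallest p-values, plus the leading member of each role) were chosen with earlier results of these data known. The counts and medians over the list were set beside those over all transcript clusters tested, with no test of the list. No pair of arrays had identical values.

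Replicate numbers were checked for pairing by correlating deviations from the group means. Aminaphtone and control arrays with the same number at 1 h gave r of 0.726, 0.406 and 0.292, and the 1 and 3 h controls 0.268, 0.327 and 0.239. These were taken as pairs, from the data and not from the labels. A like order of the arrays on the first residual component gives the same pattern. Alternatives covered filters, array centring, variance estimation, array weights, blocks, the first residual component, only the arrays compared, and each array left out. Chosen after seeing the data were a filter level over annotated rows, the gradient score as a covariate and the fit without the 1 h control arrays.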

Additional observations from a re-analysis of the deposited data

Results flagged for a closer look

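In GINS1 and SLBP every aminaphtone array lay above every control array at 1 time and below at another. For GINS1 the difference was 0.43 at 1 h and -0.27 at 3 h, a change of 0.71 on the log2 scale, with an interaction p of 0.00448 (limma adjusted p = 0.537). For SLBP it was 0.24 at 1 h and -0.14 at 6 h, a change of 0.38, with an interaction p of 0.0348 (limma adjusted p = 0.566). Both include the 1 h control arrays, and neither passed the test of the difference between times.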

How the results depend on the processing

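Under the alternatives run, no median over the members changed direction, nor did any leading gene followed in its own comparison. The other members were not all followed in this way. With array quality weights RRM2 and RFC5 were lower in the controls at 6 against 1 h, by 0.23 and 0.22 (limma adjusted p = 0.0148 and 0.0107). Without weights both had small positive differences there. Of the values of the leading genes under the alternatives, 1362 kept their side of the threshold, 60 lost it and 82 gained it. Leaving out each array in turn, the number of members past the threshold ran from 0 to 31 at 1 h, 0 to 16 for the average, 0 to 21 for the interaction, 3 to 25 for the controls at 3 against 1 h, 19 to 28 at 6 against 1 h and 0 to 4 at 6 against 3 h. With aminaphtone it ran from 6 to 35, 30 to 48 and 0 to 5 for the same intervals. It stayed at 0 for aminaphtone against control at 3 and 6 h. The counts of 31, 16, 21 and 25 came without 1 h control replicate 1, where 48.2%, 19.1%, 16.2% and 31.9% of all transcript clusters passed. The control medians ran from -0.14 to -0.01 (3 against 1 h) and -0.40 to -0.22 (6 against 1 h).

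With array quality weights, which ran from 0.144 to 7.95, the counts were 28 at 1 h, 11 at 6 h, 28 for the average and 25 for the interaction, 33, 40 and 27 in the controls (3 against 1 h, 6 against 1 h, 6 against 3 h) and 39 and 28 with aminaphtone (3 against 1 h, 6 against 3 h), and the control medians at 6 h were -0.44 and -0.33. Calls rose over all transcript clusters too. In the same order 60.1%, 14.9%, 41.1% and 36.3% of all passed, then 46.3%, 56% and 12% in the controls and 27.3% and 27.3% with aminaphtone. At 1 h the members' share was not above that of all. With the first residual component as a covariate, which lowers the spread and leaves the differences as they are, the counts were 29, 1 and 1 for aminaphtone against control by time, 21 averaged, 24 in the interaction test, 22, 34 and 15 in the controls and 44 and 13 with aminaphtone. The shares of all were 42.4%, 1.73% and 0.863%, 25.7% averaged and 20.4% in the interaction test. They were 33.3%, 42.7% and 7.84% in the controls and 25.7% and 8.95% with aminaphtone. With the gradient score as a covariate the counts were 1 at 3 h (1.73% of all), 15, 34 and 15 in the controls (18.7%, 28.7% and 6.21%) and 44 and 9 with aminaphtone (21.7% and 5.04%). With a replicate block within each time the count was 23 at 1 h and 1 for the average (12.4% and 4.3% of all). With a block common to all groups it was 11 in the controls at 3 against 1 h and 1 at 6 against 3 h (12.6% and 0.678% of all). The block moved no other count by over 1.5 times. With only the 6 arrays compared, a fit with fewer degrees of freedom, the controls gave 0, 6 and 1 (1.24%, 6.1% and 0.823% of all) and aminaphtone 1 at 6 against 3 h (0.907%). Without the 1 h control arrays, 7 control members passed at 6 against 3 h (2.17% of all), and 38 and 6 with aminaphtone (18.1% and 2.01%). The cause of these changes was not tested beyond what each fit's construction says. Filters, centring and variance settings left every count within 1.5 times. Elsewhere equal numbers did not pair: treated and control arrays correlated at -0.0797, 0.481 and -0.00469 at 3 h (2 of 6 went best with their own number) and at 0.421, -0.079 and 0.687 at 6 h (3 of 6). Single genes were least precisely measured in the 1 h controls, where the members' median SD was 0.392.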

Other observations

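Several members share a short promoter region with a gene read in the opposite direction, whose starts in RefSeq (GRCh38.p14) lie close by. MCM2 and TPRA1 start 180 bases apart and went opposite ways between 1 and 6 h with aminaphtone: MCM2 fell by 1.18 and TPRA1 was higher by 0.67 on the log2 scale (limma adjusted p = 0.00716). ORC1 and the splicing gene PRPF38A start 179 bases apart, and with aminaphtone ORC1 fell by 0.88 while PRPF38A had a difference of 0.07 (limma adjusted p = 0.726). PCNA fell by 0.67 and its neighbour CDS2, 386 bases away, had -0.03. FEN1 and TMEM258, 312 bases apart, both fell, by 0.50 and 0.63, and in the controls by 0.37 and 0.68. For POLE, which passed in neither arm, the neighbour PXMP2, 245 bases away, fell by 1.00 in the controls and by 0.65 with aminaphtone (limma adjusted p = 0.000311 and 0.00844). BRCA1 has 2 such neighbours, NBR1 at 82 bases and NBR2 at 193. With aminaphtone BRCA1 fell by 1.52 and NBR1 by 0.73 (limma adjusted p = 0.021), while NBR2 had -0.47 and did not pass (limma adjusted p = 0.0793). In the controls NBR1 had -0.28 (limma adjusted p = 0.358) and NBR2 -0.61 (limma adjusted p = 0.0168). MCM7 and AP4M1, 40 bases apart, both fell in the controls, by 0.62 and 0.68 (limma adjusted p = 0.0127 for AP4M1). With aminaphtone they had -0.90 and -0.51, and AP4M1 did not pass (limma adjusted p = 0.0685). INTS7, VPS35 and AFMID, the neighbours of DTL, ORC6 and TK1, passed in neither arm between 1 and 6 h. No test was made of these pairs as a group, and they were looked at after the members' values were known.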
